A study of Mus musculus with 8 samples.

Results

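The comparison described here sets Foxp3+ against Foxp3- thymocytes of wild-type (WT) mice. It rests on 4 of the 8 arrays of the series, 2 for each sorted fraction, and the members are all arrays labelled WT. The Foxp3+ group was sorted as CD4+Foxp3+ and the Foxp3- group as CD4SPFoxp3- (CD4 single-positive), so the labelled gates differ in more than Foxp3. WT arrays are labelled WT Foxp3KI mice; the labels do not say what was knocked in. The other 4 arrays hold the same fractions of a line labelled E2Af/fHEBf/f/ER-Cre/Foxp3KI, called KO here. In them the alleles of the transcription factors E2A and HEB are floxed, and tamoxifen activates the recombinase ER-Cre. Every group, WT included, had tamoxifen by mouth, 3 mg a mouse given 4 times over 10 days. The labels do not say whether the 2 arrays of a group came from separate mice, pools or litters, so each p-value measures only the spread between these arrays, which may be technical. The KO arrays entered the fit for its estimate of spread and served to ask whether a difference between the fractions was of the same size in both genotypes.

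Regulatory T cells (Tregs) are CD4+ T cells that restrain immune responses, and Foxp3 is the transcription factor that defines them. Those made in the thymus arise from developing CD4+ T cells that receive a strong signal through the T cell receptor (TCR) and then a signal from interleukin 2 (IL-2) through the transcription factor STAT5. Some Foxp3+ cells found in a thymus are mature cells that have come back from the circulation. A comparison of the fractions describes how RNA levels differ between thymocytes sorted as CD4+Foxp3+ and those sorted as CD4SPFoxp3-. Whether each fraction held only Tregs or only conventional CD4 single-positive cells was not tested.

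RNA was read on Illumina bead arrays, which give a brightness (intensity) per probe. Each WT array detected 11810 to 12540 of the 25697 probes, at a mean intensity of 372.5 to 433.5. Levels below are log2 intensities after background correction and quantile normalization, and 13526 probes detected on at least 2 arrays were tested. Replicate arrays correlated across probes at r = 0.995 (WT Foxp3+) and 0.996 (WT Foxp3-); probes are not independent replicates. The median SD between the 2 arrays of a group was 0.09 and 0.08 in that order. With limma and Benjamini-Hochberg adjustment, 4229 probes passed an adjusted p of 0.05, which is 31.3% of those tested. Of these, 1983 were higher and 2246 lower in Foxp3+ cells. A gene with several probes is represented by the one with the highest mean. Of 9137 genes, 1509 (16.5%) were called higher and 1493 (16.3%) lower. Each list count below is to be set against these shares. The larger differences lay mostly on the higher side, with 618 genes higher and 278 lower among those at least 2-fold apart, and 208 against 48 among those at least 4-fold apart. Without WT Foxp3+ replicate 1 or 2 the count of called probes was 2670 in each case, and without WT Foxp3- replicate 1 or 2 it was 2541 and 2367. Higher probes made up 46.9% of the calls, 35.9% under median scaling and 58.9% under cyclic loess. These are bulk samples, in which fewer cells of a type and less RNA per cell cannot be told apart.

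Markers of granulocytes, dendritic cells or macrophages, erythroid cells and B cells were high in the WT Foxp3+ arrays, and are given first because they run beside every list below. Those of natural killer or innate-like T cells, given further down, were split, with 3 of 8 tested higher and 4 lower. All 5 tested granulocyte markers were called higher, as were all 10 tested dendritic cell or macrophage markers, all 4 erythroid markers and 3 of 6 B cell markers. Together that is 22 of 25 tested (of 38 listed) higher and 0 lower, against 16.5% of all genes called higher. Granulocyte markers summed to 11083 and 11744 linear units on the Foxp3+ arrays and to 230 and 179 on the Foxp3- arrays. Dendritic cell or macrophage markers summed to 10648 and 11424 against 2032 and 2017, erythroid markers to 5153 and 5546 against 296 and 236, and B cell markers to 846 and 759 against 208 and 178. None of these ranges overlapped. On the Foxp3- arrays 9 of the 25 were detected on neither array, while 24 were detected on both Foxp3+ arrays. Detection on any 2 arrays was enough for testing, so a gene of any list could enter through the fraction where it is high alone. Elane and Mpo, of the granulocyte list, passed the filter only with the WT Foxp3+ arrays. Such a gene could not have been called lower, so these counts are a description and no test of the lists. Leaving out WT Foxp3+ replicate 1 or either WT Foxp3- array left 1 B cell call. When only the 4 WT arrays were fitted, 5 of the 6 B cell markers were called higher. The part of such cells or their RNA in the differences below was not tested.

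T cell markers ran the other way by a small margin. Their summed level was 40478 and 41931 on the Foxp3+ arrays and 58060 and 59099 on the Foxp3- arrays, and 7 of 9 tested were called lower, with a median log2 difference of -0.43. The count was sensitive to single arrays: 1 marker was lower when WT Foxp3+ replicate 1 was left out, 4 for replicate 2 of that group, and 3 for either WT Foxp3- array. Cd3g, a chain of the TCR complex, was called under every one of these settings, at 13.28 and 13.41 against 13.97 and 14.11 (log2 difference -0.70 ± 0.11 SE; limma adjusted p = 0.00247). The defining T cell genes were thus well detected in both fractions. The Treg markers, given next, separated the fractions as the sort labels say. Foxp3, 1 of those markers, is the gene the sort was made on, so its separation follows from the sort.

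**Figure D1:**
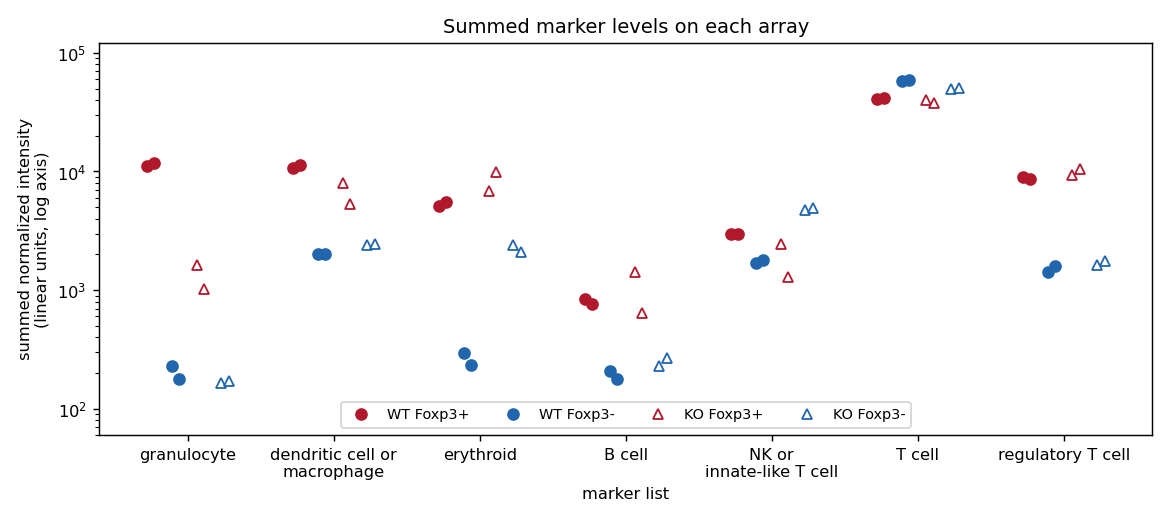
Summed normalized intensity (linear units, log axis) of 7 lists of cell type markers on each of the 8 arrays, 1 point an array, with filled circles for WT and open triangles for KO. On the WT arrays the granulocyte sum lies at 11083 and 11744 in Foxp3+ cells against 230 and 179 in Foxp3- cells, and the Treg sum at 9001 and 8605 against 1432 and 1602.

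Foxp3 itself was read by 1 probe. Its level was 9.74 and 9.90 on the WT Foxp3+ arrays and 4.27 and 4.52 on the WT Foxp3- arrays, where it was detected on neither. The groups did not overlap, and Foxp3 was at least 33.9-fold higher in Foxp3+ cells (measured means 9.82 and 4.40; limma adjusted p = 1.49e-06). An "at least" fold sets the brighter group against the detection floor of the dimmer one. Background subtraction widens differences of dim genes: without it the log2 difference of Foxp3 was 3.16 in place of 5.42, and for 66 of the 135 called genes with a value in this text or its rule the fold was over 1.5 times larger with the subtraction. Foxp3 lies on chromosome X, and RefSeq (GRCm38.p6) lists 2 starts for it. The stretch before the first, chrX:7579556-7579675 on the plus strand, is shown because Foxp3 is the gene the sort was made on; capitals mark a TATA box (TATAAA), which begins 32 bases before the annotated start and is present on either strand in 6.34% of the 32851 mouse windows of this length.
Foxp3: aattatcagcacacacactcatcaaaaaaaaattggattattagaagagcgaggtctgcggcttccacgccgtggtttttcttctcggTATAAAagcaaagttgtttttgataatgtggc

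RNA of surface and nuclear proteins that define Tregs rose with Foxp3. Il2ra, the IL-2 receptor alpha chain (CD25), stood at 10.00 and 10.27 against 5.32 and 4.75, which is 34.4-fold higher (log2 difference 5.10 ± 0.20 SE; limma adjusted p = 1.56e-06). Ctla4, an inhibitory receptor that Tregs use to take the ligands of CD28 away from other cells, stood at 11.75 and 11.62 against 7.88 and 8.01 (13.3-fold; limma adjusted p = 1.49e-06). In both genes the replicates lay far closer to each other than to the other fraction. Ikzf2, which encodes the Ikaros family factor Helios, was at 8.27 and 8.01 against 5.29 and 5.16 (7.53-fold; limma adjusted p = 4.91e-05). Its relative Ikzf4 (Eos), a partner of Foxp3 in repression, rose 2.87-fold (limma adjusted p = 0.000309). Tnfrsf18 (GITR) was already bright in Foxp3- cells, at 10.10 and 10.30, and reached 11.72 and 11.55 in Foxp3+ cells (2.71-fold; limma adjusted p = 7.04e-05). Together these markers moved one way: all 5 Treg markers were called higher.

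Of 30 genes listed as a Treg signature, 24 were tested, 22 were called higher and none lower, with a median log2 difference of 2.40 against -0.05 over all genes (1.69 for the list without background subtraction). The 22 include Foxp3, whose call follows from the sort. The count was 21 without any 1 of the WT arrays and 21 to 23 under the other settings. Some of the highest are co-receptors and enzymes at the cell surface. Nrp1 (neuropilin 1), a co-receptor carried by many thymus-derived Tregs, was at 11.64 and 11.56 against 7.39 and 7.49 (17.9-fold; limma adjusted p = 9.33e-07). Nt5e (CD73), the ectoenzyme that makes adenosine from AMP, was at 11.37 and 11.57 against 8.24 and 8.03 (10-fold; limma adjusted p = 1.26e-06). The groups stood apart in both cases. Klrg1, a lectin receptor of effector-type Tregs, was undetected on both Foxp3- arrays (4.37 and 4.42) and at 9.03 and 9.55 on the Foxp3+ arrays, at least 23.5-fold higher (limma adjusted p = 9.93e-07). Itgae (CD103), an integrin chain that binds E-cadherin, rose 8.09-fold, and its 5 other probes were 0.95 to 2.98 higher on the log2 scale.

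Secreted and intracellular members of the signature rose too. Ebi3, which encodes a subunit of the cytokines IL-27 and IL-35, was undetected in Foxp3- cells (4.36 and 4.30) and at 7.95 on both Foxp3+ arrays, at least 9.24-fold higher (limma adjusted p = 1.07e-06). Il10, an anti-inflammatory cytokine, was at 6.47 and 6.51 against an undetected 4.30 and 4.43 (at least 3.36-fold; limma adjusted p = 4.93e-05). Neither gene had a Foxp3+ array near the Foxp3- level. Capg, which caps actin filaments, rose 5.02-fold, Izumo1r (folate receptor 4) 3.67-fold, Gpr83, a G protein-coupled receptor, 3.37-fold, and Tnfrsf4 (OX40) 3.37-fold. Lgals1 (galectin 1) was called at 0.52 on the log2 scale, and its call was lost without any 1 of the WT arrays (limma adjusted p = 0.102 to 0.144). The 2 members not called were Icos, a costimulatory receptor, at 10.23 and 10.39 against 10.55 and 10.52 (log2 difference -0.22; limma adjusted p = 0.312), and Fgl2, a secreted fibrinogen-like protein, at 5.77 and 6.41 against 5.46 and 5.15 (0.78; limma adjusted p = 0.0926). Icos levels differed by about the spread of the Foxp3+ pair, whereas Fgl2 varied most between the Foxp3+ arrays.

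**Figure D2:**
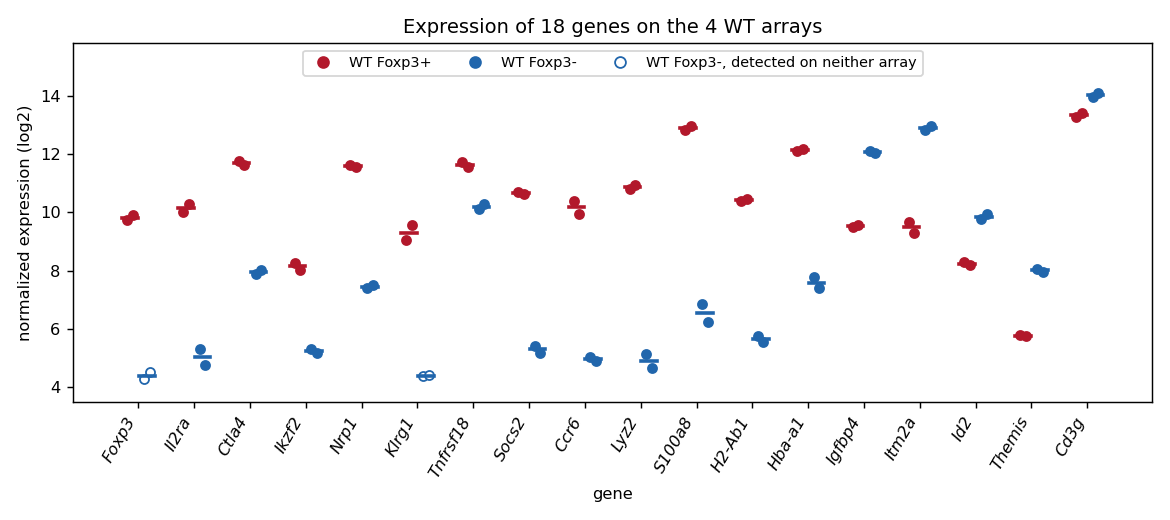
Normalized log2 expression of 18 genes on the 4 WT arrays, 1 point an array, with a bar at the mean of each group (n = 2) and open points where neither Foxp3- array detected the gene. Treg genes such as Foxp3 and Klrg1, and genes of other blood cells such as S100a8 and Hba-a1, were high in Foxp3+ cells, and Itm2a, Igfbp4 and Themis were high in Foxp3- cells.

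The 12 largest increases among genes measured in both fractions held both kinds of gene: 3 belong to the Treg signature (Socs2, Il2ra and Cd83) and 5 to a marker list of another cell type. Lyz1, S100a9, S100a8 and Lyz2 led. S100a8 and S100a9 encode the calprotectin subunits of neutrophils; S100a8 was at 12.82 and 12.97 against 6.84 and 6.22 (82.5-fold; limma adjusted p = 1.13e-06), and S100a9 at 11.66 and 11.61 against 5.29 and 5.17 (84.8-fold; limma adjusted p = 3.03e-06). Lyz2, a lysozyme of macrophages and granulocytes, was at 10.79 and 10.94 against 5.12 and 4.65 (62.9-fold), and was detected on 1 of the 2 Foxp3- arrays. For each of these the replicates of a fraction lay far closer together than the fractions did. The Lyz1 probe rose 94.4-fold, but the 2 other Lyz1 probes were not called (0.46 and 0.67), and Lyz1 and Lyz2 are near-identical copies whose signals a probe may not separate. Slpi, a protease inhibitor of neutrophils and epithelia, rose 36.9-fold over a Foxp3- level detected on 1 of 2 arrays, and Hba-a1, alpha globin, 23.6-fold, from 7.77 and 7.40 to 12.11 and 12.18.

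The 5 largest increases over an undetected Foxp3- level were those of Foxp3, Slc40a1 (the iron exporter ferroportin, at least 43.6-fold), Vcam1 (an adhesion molecule of macrophages and stroma, at least 31.7-fold), Lcn2 (the neutrophil protein lipocalin-2, at least 29.8-fold) and Chil3 (a chitinase-like protein of macrophages, at least 26.2-fold). Their limma adjusted p lay between 9.93e-07 and 1.57e-06. Slc40a1 stood at 10.07 and 10.29 against 4.45 and 4.23, and Vcam1 at 9.58 and 9.87 against 4.63 and 4.29. Adgre1, a macrophage surface receptor from the marker list, was also undetected in Foxp3- cells and at least 6.48-fold higher. Elane and Mpo, granule enzymes of immature granulocytes, were undetected on the Foxp3- arrays as well, and stood at 5.74 and 5.78 (Elane, at least 2.03-fold higher) and at 6.23 and 6.62 (Mpo, at least 3.23-fold higher) on the Foxp3+ arrays. Slc4a1, the band 3 anion exchanger of red cells, was at least 12.4-fold higher.

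Of the dendritic cell or macrophage markers, 4 belong to antigen presentation by MHC class II, and each was called higher. H2-Aa, H2-Ab1 and H2-Eb1 encode the chains of the class II molecules that dendritic cells, macrophages and B cells use to present peptide to CD4+ T cells, and Cd74 encodes the invariant chain. H2-Ab1 was at 10.40 and 10.45 against 5.74 and 5.54 (27.5-fold; limma adjusted p = 1.68e-05), and its 3 other probes differed by 3.55 to 4.34 on the log2 scale. H2-Eb1 was at 9.79 and 9.91 against 5.43 and 5.26 (22.7-fold; limma adjusted p = 7.78e-06). H2-Aa was at 9.60 and 9.72 against 5.37 and 5.50 (18.7-fold; limma adjusted p = 3.38e-05). Neither Foxp3- array came near a Foxp3+ array for any of them. Cd74 went from 8.61 and 8.57 to 11.37 and 11.39 (6.93-fold; limma adjusted p = 0.000199). The stretches before the starts of H2-Aa and H2-Eb1 are shown, since both genes rose (RefSeq, GRCm38.p6), with capitals for the Y box (CTGATTGG), an element of class II promoters that binds the factor NF-Y. H2-Aa lies on the minus strand, chr17:34287824-34287943, and H2-Eb1 on the plus strand, chr17:34305747-34305866; both are read along the gene. The letters begin 51 bases before the start of H2-Aa and 62 before that of H2-Eb1, and 2.84% of the 32851 windows hold them on either strand. A match is a description of the sequence and no evidence that the site was in use here.
H2-Aa: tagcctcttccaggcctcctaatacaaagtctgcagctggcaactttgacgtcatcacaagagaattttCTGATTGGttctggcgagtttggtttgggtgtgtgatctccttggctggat
H2-Eb1: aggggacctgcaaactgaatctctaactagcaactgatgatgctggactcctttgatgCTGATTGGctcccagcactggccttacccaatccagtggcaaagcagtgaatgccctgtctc

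The genes around IL-2 reception were next. Of 15 tested genes of the IL-2 receptor and STAT5 pathway, 8 were called higher (53.3%) and 1 lower (6.67%). The 8 include Il2ra, Il2rb and Socs2, which are also counted in the Treg signature. Beside Il2ra, Il2rb, the signalling beta chain of the receptor, was at 8.94 and 8.88 against 6.44 and 6.43 (5.57-fold; limma adjusted p = 3.31e-06). Targets of STAT5 that feed back on cytokine receptors rose: Socs2 was at 10.69 and 10.64 against 5.42 and 5.17 (41.4-fold; limma adjusted p = 3.3e-07), Cish rose 6.18-fold and Socs3, which answers STAT3 more than STAT5, 9.79-fold. None of these had a Foxp3+ array near the Foxp3- level. Pim1, a survival kinase, was at 8.40 and 8.08 against 4.88 and 4.60 (11.3-fold), detected on 1 of the 2 Foxp3- arrays, although its other probe differed by 0.27 only. Bcl2, a survival factor, was at 10.34 and 10.11 against 10.12 and 10.22 (log2 difference 0.05; limma adjusted p = 0.771), while its 5 other probes differed by -0.25 to -0.46 and 1 of them was called lower. Il7r, the IL-7 receptor alpha chain, was at 11.73 and 11.90 against 12.06 and 11.97 (-0.20; limma adjusted p = 0.237), with its other probes at -0.43 and -0.38, 1 of them called lower. The 1 lower call, of Pim2 (its other probes, at -0.05 and -0.43, were not called), was lost without WT Foxp3+ replicate 1 or either WT Foxp3- array (limma adjusted p = 0.0698 to 0.103).

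NF-kappaB is a family of factors activated downstream of TCR, costimulatory and TNF receptor signals. Of 18 tested pathway genes, 12 were higher (66.7%) and none lower, with a median log2 difference of 0.56. The count was 8 to 11 without 1 WT array, and 8 without WT Foxp3- replicate 2. Traf1, an adaptor of TNF receptors and itself a target, rose most, at 10.50 and 10.46 against 8.66 and 8.64 (3.54-fold; limma adjusted p = 8.95e-06). The IkappaB proteins, which hold NF-kappaB back or steer it, followed: Nfkbiz rose 2.14-fold, Bcl3 2.06-fold and Nfkbia 1.9-fold. Among the subunits, Nfkb2 rose 1.81-fold and Rel (c-Rel), a factor that Foxp3 induction depends on in mice, 1.67-fold. Of 15 tested members of the TNF receptor superfamily, 9 were higher (60%) and 1 lower (6.67%). The 9 include Tnfrsf4, Tnfrsf9 and Tnfrsf18, which are also counted in the Treg signature. Tnfrsf9 (4-1BB) was at 8.94 and 8.90 against 7.33 and 7.36 (2.98-fold), Tnfrsf25 (DR3) rose 2.79-fold and Tnfrsf1b (TNFR2) 2.16-fold. Cd27, a costimulatory member, was bright in both fractions, at 12.91 and 13.07 against 12.72 and 12.72 (log2 difference 0.27; limma adjusted p = 0.0843). The lower call, of Tnfrsf1a (1 of its 3 probes was not called), was lost without WT Foxp3+ replicate 2 or either WT Foxp3- array (limma adjusted p = 0.0682 to 0.098).

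Of 20 tested genes that answer a TCR signal, 4 were higher (20%) and 6 lower (30%), with a median log2 difference of -0.02. All genes gave 16.5% and 16.3%, so the higher share was near the background, and the lower count was 3 without either WT Foxp3+ array and 2 without WT Foxp3- replicate 2. Rgs1 and Rgs16, which dampen signals from G protein-coupled receptors, rose 15.7-fold and 5.26-fold; Rgs1 was at 12.19 and 12.01 against 8.18 and 8.07 (limma adjusted p = 1.04e-06), and its other probes read 3.78 and 3.88 on the log2 scale. Dusp4, a phosphatase of MAP kinases, was at 8.52 and 7.72 against 5.77 and 5.45 (5.69-fold), with its Foxp3+ arrays further apart than most. The immediate-early factor Egr1 was lower, at 11.87 and 11.74 against 12.51 and 12.53 (fell by 0.72 on the log2 scale; limma adjusted p = 0.00176). Dusp6, a phosphatase that acts on ERK, was lower as well, at 9.95 and 10.02 against 11.17 and 11.15 (limma adjusted p = 0.000138). Phosphatases of the same family thus moved in opposite directions. Cd5, whose surface level tracks TCR signal strength in thymocytes, was called lower at -0.43, and this call was lost without any 1 of the WT arrays (limma adjusted p = 0.0849 to 0.171).

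Of 18 tested genes of the TCR and its proximal signalling chain, 9 were lower (50%), 1 was higher (5.56%) and 8 were not called. The median log2 difference was -0.40. Leaving out WT Foxp3+ replicate 1 gave 3 lower genes, leaving out its replicate 2 gave 6, and leaving out either WT Foxp3- array gave 5. Themis, a thymocyte protein needed for positive selection, differed most, at 5.78 and 5.76 against 8.07 and 7.94 (4.71-fold lower; limma adjusted p = 1.83e-05). Rasgrp1, which activates Ras after TCR ligation, was at 12.11 and 12.05 against 12.84 and 12.78 (1.66-fold lower; limma adjusted p = 0.00107); of its other probes 1 was called lower (-1.12) and 1 was not (-0.35). Cd4 was at 7.64 and 7.75 against 8.63 and 8.60 (1.9-fold lower; limma adjusted p = 0.00802), a call lost without WT Foxp3+ replicate 1 (adjusted p = 0.0541). The kinase gene Tec was the 1 higher call, at 0.67. These decreases ran beside the lower summed level of T cell markers given above, and how far they share a source was not tested.

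Receptors that restrain or assist T cells were raised more often than lowered, with 8 of 16 tested higher (50%) and 1 lower (6.25%). Lag3, an inhibitory receptor that binds MHC class II, was undetected in Foxp3- cells (4.61 and 4.64) and at 8.38 and 8.34 in Foxp3+ cells (at least 12.3-fold; limma adjusted p = 1.34e-06). Cd86, a ligand of Ctla4 and CD28 best known on antigen-presenting cells, rose 3.08-fold. Cd28, the main costimulatory receptor of T cells, was the 1 lower member, at 10.93 and 11.24 against 11.88 and 11.83 (1.71-fold; limma adjusted p = 0.00528), with its 2 other probes lower as well (-0.99 for the smaller difference). Pdcd1 (PD-1) was dim in both fractions and differed by 0.03 on the log2 scale (limma adjusted p = 0.851).

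Genes of movement between tissues split by receptor, with 50% of the tested chemokine and migration receptors higher and 33.3% lower. Of 12 tested chemokine and migration receptors, 6 were higher and 4 lower; the lower count was 2 without WT Foxp3- replicate 2. Ccr6, the receptor of CCL20 and a marker of Tregs that have returned to the thymus, was at 10.40 and 9.96 against 5.02 and 4.90 (37.1-fold; limma adjusted p = 1.16e-05). Cxcr5, which guides B cells and follicular T cells, was at 9.37 and 9.66 against 4.59 and 4.84, detected on 1 of the 2 Foxp3- arrays (27.8-fold; limma adjusted p = 9.33e-07). Both genes are also expressed by B cells, whose markers Cd79b rose 11.1-fold while Cd79a was not called (6.60 and 6.60 against 5.36 and 5.27; limma adjusted p = 0.0662). Cxcr3, a receptor of interferon-induced chemokines, rose 3.17-fold and Cxcr4, the CXCL12 receptor, 2.31-fold. On the lower side were Ccr8, at 8.68 and 8.43 against 9.84 and 9.89 (2.48-fold), and Ccr7, the receptor that takes thymocytes to the medulla, at 9.11 and 8.88 against 9.65 and 9.80 (1.66-fold), whose call was lost without WT Foxp3- replicate 2 (limma adjusted p = 0.0521). Adhesion genes had 9 of 17 higher (52.9%) and 3 lower (17.6%, near the 16.3% of all genes). Among them, Icam1 rose 3.52-fold and Cd44, a hyaluronan receptor raised on activated and memory cells, 2.07-fold (its other probe 0.17). Itgb2, the beta chain of LFA-1, was 1.77-fold lower.

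Of 13 tested genes of mature recirculating or effector Tregs, 9 were higher and none lower, with a median log2 difference of 1.05; 7 were higher without any 1 of the WT arrays. Ccr6, Klrg1, Itgae and Il10 are among them, as described above, and Batf, a factor of effector Tregs, was at 9.61 and 9.79 against 8.14 and 8.44 (2.66-fold; limma adjusted p = 0.000228). Klf2, the factor that drives exit from the thymus, was bright in both fractions, at 12.43 and 12.42 against 12.08 and 12.18 (log2 difference 0.30; limma adjusted p = 0.0868).

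Of 15 tested genes of naive and maturing thymocytes, 7 were lower and 2 higher (median -0.49, or -0.29 without background subtraction; the higher count was 1 without any 1 of the WT arrays). Igfbp4, an IGF-binding protein of naive T cells, was at 9.50 and 9.56 against 12.10 and 12.05 (5.83-fold lower; limma adjusted p = 3.11e-06). Lef1, a partner of beta-catenin in T cell development, was at 8.49 and 8.39 against 10.17 and 10.17 (3.31-fold lower), and Satb1, a chromatin organiser, at 12.76 and 12.66 against 13.96 and 13.82 (2.26-fold lower). In all of these the fractions were clearly apart, in the Foxp3- direction. By share, 46.7% of the tested naive and maturing genes were lower and 13.3% higher, the latter below the 16.5% of all genes. Immature and double-positive thymocyte genes had 7 of 14 lower and none higher, but 2 or 3 without any 1 of the WT arrays. The firm calls among them were Themis, above, and Sox4, a factor of immature lymphocytes, at 4.60 and 4.93 against 5.64 and 5.90, detected on 1 of the 2 Foxp3+ arrays (limma adjusted p = 0.00184). Rag1, of the antigen receptor recombinase, did not separate the fractions, at 4.89 and 4.39 against 4.95 and 4.82 (limma adjusted p = 0.765).

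**Figure D3:**
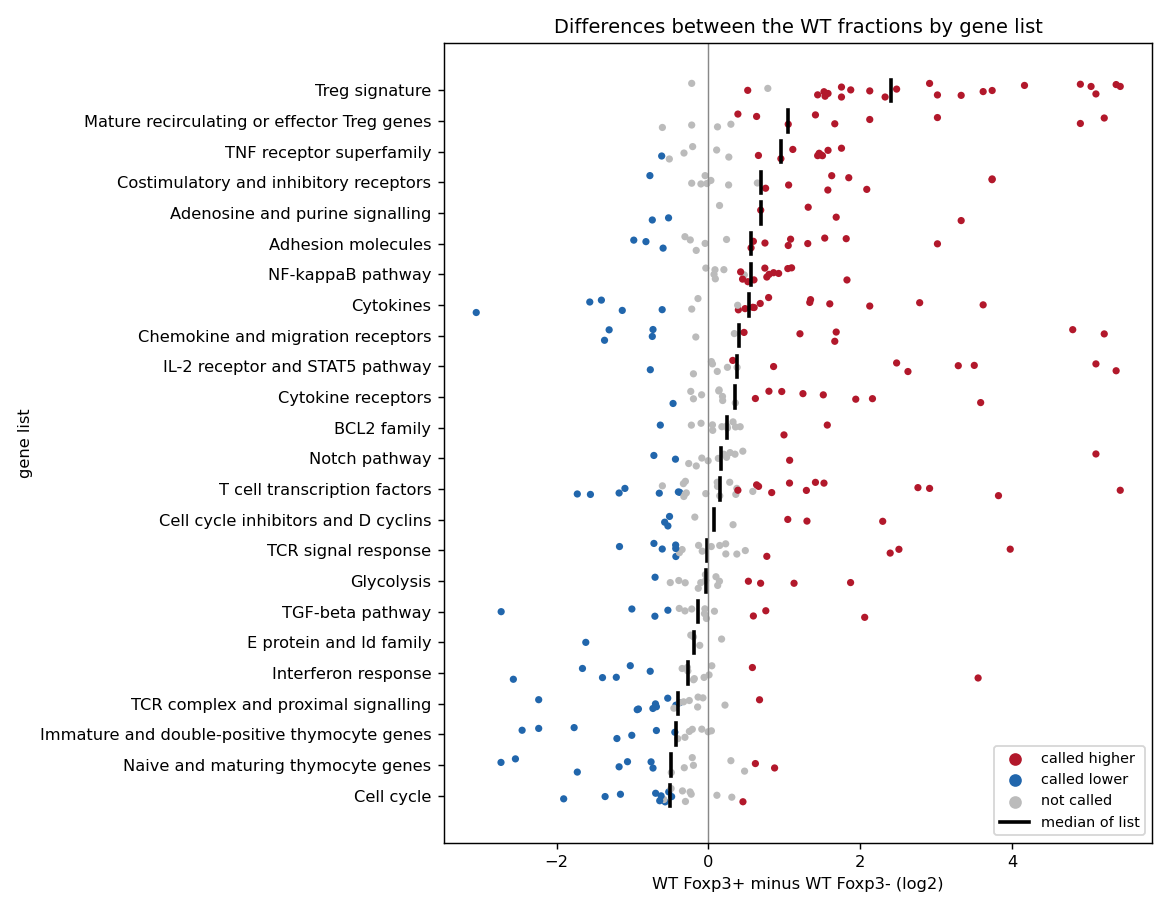
Log2 difference between WT Foxp3+ and WT Foxp3- cells (x axis) for each tested gene of 24 lists (y axis), 1 point a gene, coloured by its call, with a black bar at the median of the list. The median of the Treg signature is 2.40, the highest of the 24 here, and that of the cell cycle list is -0.51; without background subtraction these were 1.69 and -0.28.

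The 12 largest decreases among genes measured in both fractions were smaller than the increases, from 6.25-fold to 10.7-fold. Itm2a, a membrane protein induced during positive selection, was at 9.65 and 9.31 against 12.81 and 12.97 (10.7-fold lower; limma adjusted p = 2.77e-05). Il4, the cytokine of type 2 and natural killer T (NKT) cells, was at 4.35 and 4.64 against 7.47 and 7.64 (8.33-fold lower; limma adjusted p = 6.23e-06), and Il17rb, the IL-25 receptor chain of some NKT cells, at 6.07 and 5.66 against 8.92 and 8.66 (7.59-fold lower; limma adjusted p = 0.00463). Il4 was detected on 1 of the 2 Foxp3+ arrays. Tgfbr3, the co-receptor betaglycan, was 6.64-fold lower, Pdlim4, an actin-associated PDZ and LIM protein, 8.26-fold, Kif23, a kinesin of cell division, 7.16-fold, and Rgcc, a regulator of the cell cycle, 6.25-fold. The others were Klra10, Lypd6b, Tdrp, Zcchc12 and Enc1, at 6.36-fold to 8.04-fold lower.

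The natural killer (NK) and innate-like T cell receptors named here were lower, with the Ly49 family among the largest decreases. Klra10 belongs to the Ly49 family, and 2 of the 5 largest decreases to an undetected level were relatives: Klra1 at least 5.69-fold lower (4.38 and 4.35 against 7.01 and 7.31; limma adjusted p = 3.8e-06) and Klra16 at least 7.26-fold lower (limma adjusted p = 0.00491), although the other Klra16 probe differed by -0.07. Ly49 genes are close copies, so a probe may read more than 1 of them. The other 3 were Adgrg3, an adhesion G protein-coupled receptor (at least 10.5-fold), Acvrl1, a receptor of BMP9 (at least 4.78-fold), and Chdh, choline dehydrogenase (at least 4.78-fold). In the list of NK or innate-like T cell markers, 4 of 8 were lower (50%) and 3 higher (37.5%). Klrb1c (NK1.1) was at 4.76 and 4.87 against 6.42 and 6.17 (2.79-fold lower; limma adjusted p = 0.00034), and Klrk1 (NKG2D) was at least 2.54-fold lower. Those that rose were Fcer1g (11.5-fold) and Tyrobp (7.98-fold, detected on 1 of 2 Foxp3- arrays), signalling adaptors that myeloid cells also express, and Prf1, perforin (2.49-fold; its other probe 0.08).

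Among transcription factors of T cells, 12 of 33 tested were higher (36.4%) and 7 lower (21.2%), against 16.5% and 16.3% of all genes. The 12 include Foxp3, whose call follows from the sort, and Ikzf2 and Ikzf4, which are also in the Treg signature. Nfil3, a basic leucine zipper factor induced by cytokines, was at 8.93 and 8.99 against 5.09 and 5.19 (14.1-fold; limma adjusted p = 7.31e-07). Irf8, an interferon regulatory factor of myeloid and B cells that T cells also induce, was at 8.17 and 8.32 against 5.43 and 5.55 (6.77-fold; limma adjusted p = 8.67e-06). In both, the replicates of a fraction were nearly level. Ikzf1 (Ikaros) was lower, at 9.68 and 9.55 against 11.16 and 11.18 (2.94-fold; limma adjusted p = 1.87e-05), and Ets1, a factor needed for Treg development in mice, 1.57-fold lower, although its other probes, at -0.50 and -0.15, were not called. Runx1 and Bcl11b did not pass (-0.33 and -0.29; limma adjusted p = 0.0862 and 0.0909).

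The E proteins E2A and HEB are those altered in the KO line, and the Id proteins are inhibitors of E proteins. The WT arrays give the levels of this family where the alleles of E2A and HEB are intact. Tcf12, which encodes HEB, was at 7.28 and 7.48 against 7.66 and 7.57 (log2 difference -0.23 ± 0.13 SE; limma adjusted p = 0.201), a gap close to that between the Foxp3+ replicates. Tcf3, which encodes E2A, was not analysed here, since no probe named for it was among those kept. Id2 was 3.06-fold lower in Foxp3+ cells, at 8.29 and 8.18 against 9.76 and 9.94 (limma adjusted p = 0.00028). Id3 was at 8.13 and 8.76 against 8.59 and 8.70 (-0.20; limma adjusted p = 0.474), and its sign turned without WT Foxp3+ replicate 1 (0.12). Id1 and Tcf4 were not called either (-0.11 and 0.17). Thus 1 of 5 tested family members was lower (20%, against 16.3% of all genes) and none higher.

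Called genes of the cell cycle were mostly lower, at 50% of those tested, with 5.56% higher. Of 18 tested, 9 were lower and 1 higher, with a median of -0.51 (-0.28 without background subtraction), but the lower count fell to 4 or 5 without a WT Foxp3+ array (replicate 1 or 2) and to 5 or 3 without a WT Foxp3- array (replicate 1 or 2). Top2a, the topoisomerase of dividing cells, was at 7.03 and 6.76 against 8.76 and 8.84 (3.75-fold lower; limma adjusted p = 0.00273). Mcm2, of the replicative helicase, was 1.54-fold lower and Tyms, thymidylate synthase, 1.62-fold lower. Of 8 tested cell cycle inhibitors and D cyclins, 3 were higher and 3 lower, with 1 lower without WT Foxp3+ replicate 2 or WT Foxp3- replicate 1. The inhibitor Cdkn1c was at 6.76 and 6.89 against 5.51 and 5.54 (2.46-fold higher), Cdkn1b rose 2.06-fold (its other probe 0.07), and cyclin D1, Ccnd1, rose 4.91-fold (detected on 1 of 2 Foxp3- arrays) while cyclin D3, Ccnd3, was 1.45-fold lower (its other probes -0.62, called, and -0.39, not called). In the BCL2 family 2 of 13 were higher (15.4%) and 1 lower (7.69%), neither share above the 16.5% and 16.3% of all genes. The pro-apoptotic Bid rose 2.96-fold, Pmaip1 (Noxa) was at least 1.64-fold higher, and Bcl2l11 (Bim), which deletes strongly signalled thymocytes, was 1.55-fold lower, at 9.50 and 9.46 against 10.11 and 10.12 (limma adjusted p = 0.00368); of its other probes 1 was called lower (-0.90) and 1 was not (-0.38).

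Cytokine genes had 12 of 20 tested higher and 5 lower, with 7 higher without WT Foxp3- replicate 1. The lower count was 3 without WT Foxp3+ replicate 2 or either WT Foxp3- array. Ccl5, a chemokine of effector cells, was at 9.55 and 9.40 against 6.73 and 6.66 (6.88-fold; limma adjusted p = 0.000916), and Lta (lymphotoxin alpha) rose 2.54-fold. Csf2 (GM-CSF) was undetected in Foxp3+ cells and at least 2.29-fold lower. By share, 60% of the tested cytokine genes were higher and 25% lower. Of 17 cytokine receptors, 8 were higher and 1 lower; 5 were higher without either WT Foxp3+ array, and the lower call was lost without any 1 of the WT arrays. Both chains of the IL-10 receptor rose, Il10ra 4.47-fold and Il10rb 3.84-fold, as did Ifngr1, the ligand-binding chain for interferon gamma, 2.85-fold.

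Interferon-induced genes had 6 of 16 lower and 2 higher, and 6 lower without any 1 of the WT arrays. Oas2, an antiviral synthetase, was at 6.19 and 6.16 against 8.70 and 8.79 (5.94-fold lower; limma adjusted p = 1.68e-05), and Isg15, a ubiquitin-like protein, at 8.48 and 8.49 against 10.17 and 10.11 (3.16-fold lower; limma adjusted p = 1.06e-05). Irf7, which amplifies interferon production, was 2.04-fold lower. By share, 37.5% of the tested interferon genes were lower and 12.5% higher, the latter below the 16.5% of all genes. Gbp3, a guanylate-binding protein, went the other way, at 11.10 and 11.41 against 7.71 and 7.70 (11.7-fold higher; limma adjusted p = 1.33e-06), and the higher count was 1 without WT Foxp3+ replicate 2 or WT Foxp3- replicate 1.

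In the TGF-beta pathway, which supports Foxp3 expression, Tgfbr1 and Tgfbr2, which encode the receptor chains, were called in opposite directions. Tgfbr1 was at 11.39 and 11.03 against 10.43 and 10.48 (1.69-fold higher; limma adjusted p = 0.00675), but its 2 other probes, at 0.16 and 0.59, were not called. Tgfbr2 was at 11.95 and 11.89 against 12.57 and 12.67 (1.63-fold lower; limma adjusted p = 0.00323). Tgif1, a corepressor of Smad proteins, rose 4.16-fold and Smurf2, a ubiquitin ligase of the pathway, was 2.01-fold lower. In all, 3 of 14 were higher (21.4%) and 4 lower (28.6%), against 16.5% and 16.3% of all genes. Glycolysis had 4 of 15 higher (26.7%) and 1 lower (6.67%). The glucose transporters Slc2a1 and Slc2a3 rose 1.61-fold and 2.18-fold, and Hk2, a hexokinase, rose 3.66-fold. Of 14 Notch pathway genes, 2 were higher (Il2ra is 1 of them) and 2 lower, which is 14.3% each way against 16.5% and 16.3% of all genes; the lower count was 0 or 1 without any 1 of the WT arrays. Of 7 genes of adenosine and purine signalling, 4 were higher and 2 lower, with Nt5e the largest increase; the lower count was 1 without WT Foxp3+ replicate 2 or either WT Foxp3- array.

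Whether a difference between the fractions had the same size in KO mice was tested with the interaction of the same fit. The WT and KO comparisons share no array, but the interaction holds the WT difference itself. Of all probes, 715 passed (5.29%), between 281 and 369 without any 1 of the WT arrays. The core Treg markers did not differ by this test. The KO minus WT change in the fraction difference of Foxp3 was -0.32 ± 0.29 SE (limma adjusted p = 0.590), that of Il2ra -0.30 (limma adjusted p = 0.598) and that of Ctla4 -0.07 (limma adjusted p = 0.887), on the log2 scale. A value that misses the threshold does not show that the genotypes act alike. Within the Treg signature, 10 of 24 genes had a called interaction, 9 with a smaller difference in KO mice. Nrp1 was 4.16 apart in WT and 2.31 in KO (limma adjusted p = 0.00159), Socs2 5.37 and 2.57, and Lag3, from the receptor list, 3.74 and 0.87. Cxcr5 was 4.80 apart in WT and 0.82 in KO, and Ccr6 5.21 and 2.18. On the Foxp3- arrays Lag3 was at 7.22 and 7.29 in KO against 4.61 and 4.64 in WT. Cxcr5 was at 7.96 and 7.91 there against 4.59 and 4.84, and Ccr6 at 8.63 and 8.63 against 5.02 and 4.90. On KO Foxp3+ arrays the levels were 8.32 and 7.92 (Lag3, WT 8.38 and 8.34), 8.90 and 8.61 (Cxcr5, WT 9.37 and 9.66) and 11.35 and 10.26 (Ccr6, WT 10.40 and 9.96).

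Genes of other blood cells also differed by genotype in this test. Of the 25 tested markers of B cells, dendritic cells or macrophages, erythroid cells and granulocytes, 9 had a called interaction and all 9 were smaller in KO mice. The granulocyte sum on KO Foxp3+ arrays was 1628 and 1031, against 11083 and 11744 on WT Foxp3+ arrays, while the Treg marker sum was 9391 and 10502 there, against 9001 and 8605. The erythroid sum went the other way, at 6846 and 9956 on KO Foxp3+ arrays against 5153 and 5546 in WT, and its KO Foxp3- level was 2424 and 2103 against 296 and 236. Dendritic cell or macrophage markers summed to 7981 and 5356 on KO Foxp3+ arrays and B cell markers to 1412 and 646. S100a8 was 6.37 apart in WT and 3.44 in KO (limma adjusted p = 0.00222), and Lyz2 5.97 and 2.57 (limma adjusted p = 0.000419). The levels behind these values differed. S100a8 was at 9.92 and 9.41 on KO Foxp3+ arrays, below 12.82 and 12.97 in WT, with KO Foxp3- arrays at 6.19 and 6.26 against 6.84 and 6.22. Nrp1 was at 11.84 and 11.52 on KO Foxp3+ arrays against 11.64 and 11.56 in WT, and at 9.29 and 9.43 on KO Foxp3- arrays against 7.39 and 7.49. Socs2 likewise was at 10.59 and 10.62 against 10.69 and 10.64 in Foxp3+ cells, and at 7.93 and 8.13 against 5.42 and 5.17 in Foxp3- cells. For S100a8 the genotypes thus stood apart in the Foxp3+ fraction, and for Nrp1 and Socs2 in the Foxp3- fraction; the part of the marker levels in these values was not tested. Of the 12 largest increases, 11 had a called interaction and Il2ra did not. Of the 12 largest decreases, 1 had one (Zcchc12). Both sets of 12 were picked for a large WT difference, which the interaction subtracts. That choice alone favours a smaller KO difference, so these counts are no test of genotype.

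**Figure D4:**
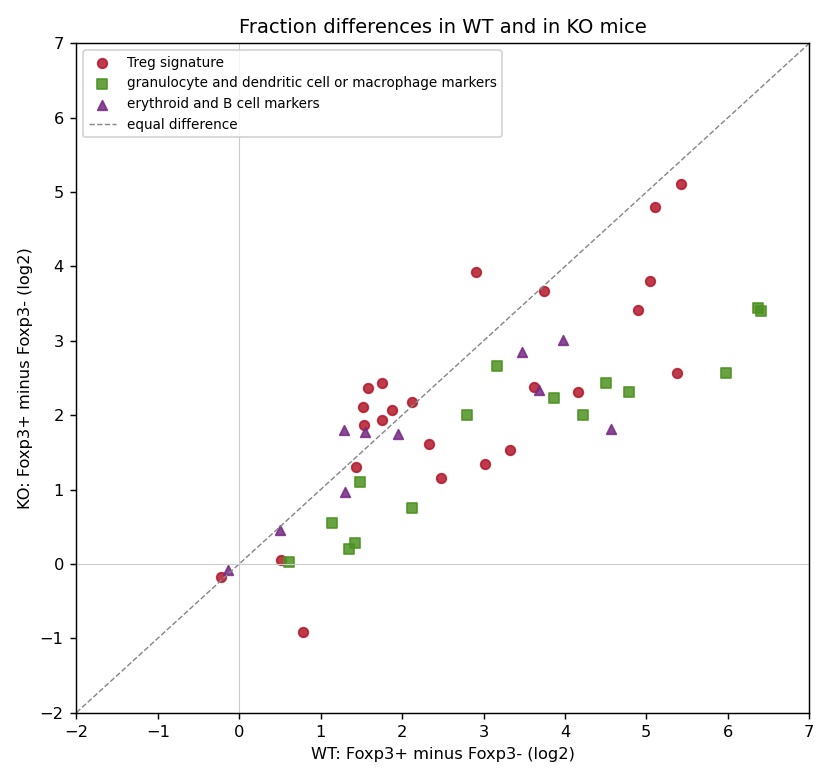
Log2 difference between Foxp3+ and Foxp3- cells in WT mice (x axis) and KO mice (y axis) for genes of the Treg signature and for markers of other blood cells, 1 point a gene; the dashed line marks an equal difference. Foxp3, at 5.42 and 5.10, lies near the line, and the granulocyte marker S100a8, at 6.37 and 3.44, lies below it.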

How the data were processed

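The authors deposited a table of linear intensity per probe, not normalized between arrays, with a detection p-value per array; per the submitters' processing notes it was made with GenomeStudio 2011.1. The authors also deposited processed log2 values for 14942 probes, which quantile normalization of the log2 intensities of those probes, without background subtraction, rebuilt to within 0.000675. Columns were matched to samples by the labels, and 0 columns were left without one.

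Intensities were background-corrected with limma 3.58.1 (R 4.3.3) as in neqc, with controls inferred from the detection p-values and an offset of 16, then taken to log2 and quantile-normalized over all 8 arrays. The filter kept 13526 of 25697 probes, those detected (p under 0.05) on 2 arrays or more. lmFit fitted 4 group means to 8 arrays (4 residual degrees of freedom) and eBayes followed (4.00 prior degrees of freedom). Tests are two-sided, with Benjamini-Hochberg adjustment over all kept probes and calls at an adjusted p under 0.05. An exact permutation test of 2 against 2 arrays cannot go below p = 0.333 and was not used. The number of arrays limits the precision.

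Gene symbols come from the platform annotation at GEO: 12702 kept probes have 1 symbol, 824 none and 0 several. In 3 genes, probes were called in opposite directions, and in 746 of the 2501 genes with several probes the calls differ. An undetected group gives a bound: the brighter mean is set against the dimmer arrays' own signal or their lowest detected signal, whichever is higher. Named are Foxp3, Tcf3 and Tcf12, the 12 largest differences each way measured in both fractions, the 5 largest bounds each way, and members of 24 gene lists (327 of 430 genes tested) and 10 marker lists. The comparison and the lists were chosen with earlier results of these data known. Alternatives varied background, scaling, offset, filter, spread model, samples fitted, single arrays and a replicate block; the deviations of same-numbered WT arrays correlated at -0.03, so the numbers were not taken as pairs.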

Additional observations from a re-analysis of the deposited data

Results flagged for a closer look

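For 50 named genes the difference between Foxp3+ and Foxp3- cells differed between the genotypes by the interaction test (limma, adjusted p under 0.05). The values here are the KO difference minus the WT difference on the log2 scale; a negative value on a gene higher in WT Foxp3+ cells means a smaller difference in KO mice. Of the 50, 44 were negative and 6 positive, and 5.29% of all probes were called. Genes named for a large WT difference are favoured to show a smaller KO difference, so these signs are no test of genotype.

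Markers and products of other blood cells gave -3.19 for Lyz1, -3.001 for S100a9, -2.93 for S100a8, -3.40 for Lyz2, -4.03 for Slpi, -2.75 for Hba-a1, -3.42 for Lcn2, -3.01 for Chil3, -1.58 for Vcam1, -1.16 for Elane and -3.74 for Fcer1g. The MHC class II genes gave -2.47 for H2-Ab1, -2.22 for H2-Aa and -2.07 for H2-Eb1.

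In the Treg signature the values were -2.80 for Socs2, -1.23 for Cd83, -1.85 for Nrp1, -1.48 for Klrg1, -1.68 for Itgae, -1.23 for Ebi3, -1.80 for Nt5e, -1.32 for Il2rb and -0.71 for Capg, and 0.68 for Gpr83, the member whose difference was larger in KO mice.

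Cytokine and TNF receptor signalling genes gave -2.58 for Socs3, -1.57 for Cish, -1.03 for Traf1, -1.04 for Tnfrsf25, -1.25 for Il10ra, -1.38 for Il10rb and -1.06 for Ifngr1. Receptors and adhesion molecules gave -3.03 for Ccr6, -3.98 for Cxcr5, -2.39 for Cxcr3, -2.87 for Lag3, -0.85 for Cd44 and -1.04 for Icam1. Transcription factors gave -1.73 for Nfil3, -1.55 for Irf8 and -0.91 for Batf, and other genes -2.41 for Rgs1, -0.75 for Bid, -1.24 for Ccnd1 and -0.99 for Gbp3.

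Ccl5 had the largest value, -5.10, and its direction turned, from 2.78 in WT to -2.31 in KO. Its level was 9.74 and 8.32 on KO Foxp3+ arrays against 9.55 and 9.40 in WT, and 11.36 and 11.32 on KO Foxp3- arrays against 6.73 and 6.66. Cxcr3 also went from 1.66 in WT to -0.73 in KO.

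The 6 positive values were 1.50 for Zcchc12, 1.23 for Chdh, 0.89 for Egr1, 0.86 for Tyms, 0.77 for Isg15 and that of Gpr83 above. All of these but Gpr83 were lower in WT Foxp3+ cells. The fraction difference of Egr1 was -0.72 in WT and 0.17 in KO, and that of Tyms -0.70 and 0.16.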

How the results depend on the processing

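The 4229 called probes ranged from 2367 to 4912 when any 1 of the 8 arrays was left out, and from 4003 to 5208 over the other settings. With the replicate number as a block 4003 probes were called in WT and 607 in the interaction, and the block ended no call of a named gene. The 715 interaction calls ranged from 281 to 1098 with 1 array left out, and reached 1093 with a variance trend; the cause was not tested. Where 1 array is left out, the lone array of its group is assumed to vary like the others. The neqc function itself, an alternative chosen after seeing the data, gave 4224 and 713. Median scaling moved the median log2 difference of all probes from -0.07 to -0.16 and cyclic loess moved it to 0.01, with 46.9%, 35.9% and 58.9% of calls on the higher side in that order. Of the 135 named genes called, 129 kept the call in all 21 alternatives that tested them and 6 lost it without at least 1 WT array (Ccr7, Cd4, Cd5, Lgals1, Pim2 and Tnfrsf1a); Lgals1 also lost it under median scaling, without the filter on dim probes and without either KO Foxp3- array. No called gene turned its direction. Among the 15 not called, Bcl2 turned to -0.10 under median scaling and ran from -0.064 to 0.17 with 1 array left out, and Id3 ran from -0.51 to 0.12 likewise, while 6 were called under some setting (Cd79a, Bcl11b, Fgl2, Cd27, Klf2 and Runx1). Signal near background limits the folds of dim genes: the median absolute log2 difference of called named genes was 2.13, and 1.37 without background subtraction. With no filter on dim probes, 1937 probes were higher and 2105 lower.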

Other observations

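The marker lists not described so far were thinly measured. Of thymic epithelial cell markers, 2 of 10 were tested and 1 was lower, without a call when WT Foxp3+ replicate 2 or either WT Foxp3- array was left out. Of CD8 lineage markers, 2 of 4 were tested and 1 was lower, without a call when any 1 of the WT arrays was left out. Of gamma delta T cell markers, 2 of 5 were tested and 1 was lower, also without any 1 of the WT arrays.

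Of the 824 kept probes with no gene symbol, 233 were called between the WT fractions. Over all kept probes the share called was 31.3%.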
